A study of Mus musculus with 6 samples.

Results

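Reactive astrogliosis genes were examined in chronic stroke infarcts of the mouse cortex. The genes were *Gfap*, *Vim*, *Nes*, *Lcn2*, *Serpina3n*, *Stat3*, *S1pr3*, *Aspg*, *Steap4*, and *Cd44*, taken by symbol from the count tables and chosen because they are standard markers of astrocyte reactivity. These are 10 of the 46078 genes in the tables and 10 of the 15554 genes with enough counts to be tested. The tissue came from male C57BL/6J wild-type mice aged 3 months, collected 7 weeks after DH stroke, a model in which the distal middle cerebral artery is occluded permanently by cautery and the mouse is then kept in low oxygen. RNA-Seq was performed on 3 infarcts, dissected by eye, and on 3 pieces of the corresponding contralateral cortex. The contralateral pieces came from mice that had also gone through surgery, hypoxia, and stroke, and tissue from unoperated mice was not analyzed here. The sample records name no drug treatment, and they do not say which infarct and which contralateral piece came from the same mouse. Nothing in the records says that libraries with different numbers came from separate mice, so *p* values measure the spread between these tissue samples.

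Reactive astrocytes are astrocytes that have responded to injury by enlarging, adding intermediate filaments to their cytoskeleton, and secreting acute phase proteins. Around a cortical infarct they form a glial scar, and signaling through the receptor subunit gp130 and the transcription factor STAT3 is a well-studied route to this state. Several of the genes are not exclusive to astrocytes. *Vim* and *Cd44* are abundant in fibroblasts, endothelium, and leukocytes, *Stat3* is active in most cells, and *Lcn2* and *Steap4* are also expressed by neutrophils, macrophages, or mural cells.

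Counts on genes ranged from 12146959 to 13427057 in infarcts and from 11943570 to 19933962 in contralateral cortices, and levels are given as CPM, the counts of a gene relative to the library total after TMM scaling between libraries. Of the 15554 genes tested, 25.7% were called higher in infarcts and 20.9% lower, with an edgeR quasi-likelihood adjusted *p* under 0.05 and more than a 2-fold change as the call. For 72.3% of tested genes, the values of the 3 infarcts and of the 3 contralateral cortices did not overlap. Calls for single genes are therefore read against a background in which many genes differed. Because the tissue is bulk, fewer cells of a type cannot be told apart from less RNA per cell.

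All 10 reactive astrocyte genes were called higher in infarcts and 0 were called lower, and for all 10 the regions did not overlap. Their log2 fold changes ran from 1.23 for *Nes* to 9.15 for *Lcn2*, with a median of 5.05. The median over all tested genes was 0.03, and 4.41 marked the 95th percentile. Of the genes, 6 lay beyond that percentile, which were *Lcn2*, *Steap4*, *Serpina3n*, *Cd44*, *Vim*, and *Gfap*. *Gfap*, *Lcn2*, and *Serpina3n* were named as raised in the paper on these libraries, so their direction here is not independent evidence. Summed over the genes, the level was 2945, 2835, and 3555 CPM in infarcts 1, 2, and 3, and 131, 131.7, and 163.9 CPM in the contralateral cortices.

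**Figure D1:**
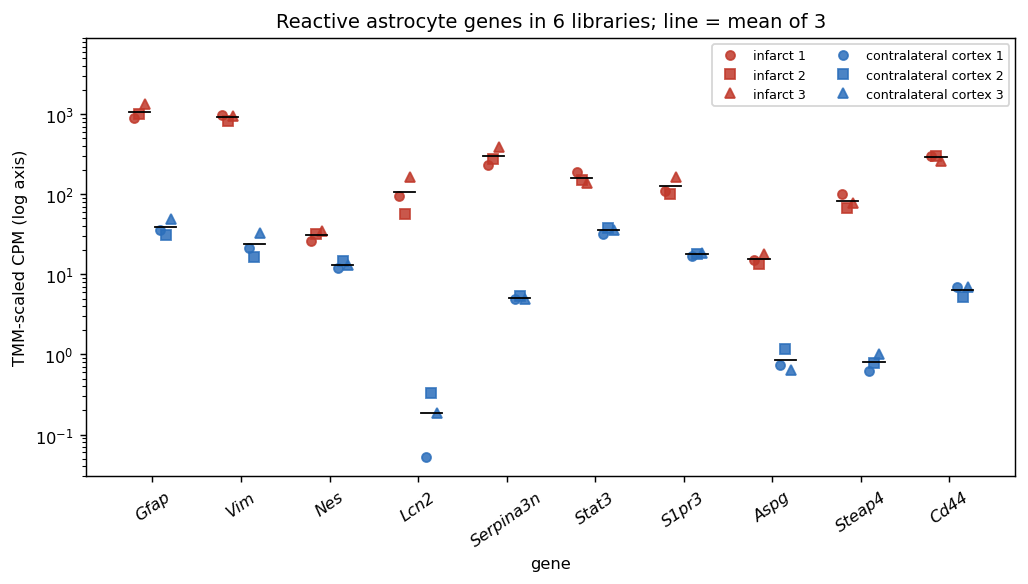
TMM-scaled CPM on a log axis for each reactive astrocyte gene, with red symbols for infarcts 1 to 3, blue symbols for contralateral cortices 1 to 3, and black lines for the mean of 3. Every infarct value lies above every contralateral value of its gene, with the narrowest gap for *Nes* (26.3 CPM in the lowest infarct and 14.8 CPM in the highest contralateral cortex).

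Their promoters were searched for a STAT motif. A window from 250 bases before to 50 bases after the RefSeq start (GRCm38.p6) was found for all 10 genes. The STAT motif TTCNNNGAA, searched on both strands, occurred in 2 of the 10 windows, those of *Gfap* and *Steap4*, and in 8.3% of 32851 mouse promoter windows of the same length. In the window of *Gfap* (chr11:102897151-102897450, minus strand) it began at position -2 relative to the start, and in that of *Steap4* (chr5:7960222-7960521, plus strand) at position -116. The *Gfap* window lies inside the span of the gene in GENCODE M21, which also has a start farther upstream. Both windows are shown 5′ to 3′ on the strand of the gene, with the STAT motif in capitals.
Gfap: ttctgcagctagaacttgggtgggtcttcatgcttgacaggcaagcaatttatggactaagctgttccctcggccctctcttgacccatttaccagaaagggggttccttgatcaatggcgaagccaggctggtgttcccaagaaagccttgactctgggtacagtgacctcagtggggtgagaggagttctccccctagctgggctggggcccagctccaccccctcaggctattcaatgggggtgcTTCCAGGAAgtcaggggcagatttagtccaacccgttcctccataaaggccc
Steap4: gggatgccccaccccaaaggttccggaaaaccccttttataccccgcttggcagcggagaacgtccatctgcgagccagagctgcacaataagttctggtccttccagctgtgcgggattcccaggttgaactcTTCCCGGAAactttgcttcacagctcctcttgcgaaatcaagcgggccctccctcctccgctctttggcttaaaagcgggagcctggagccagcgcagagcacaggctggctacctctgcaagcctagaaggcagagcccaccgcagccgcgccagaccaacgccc
The AP-1 motif TGANTCA was, on either strand, in 0 of the 10 windows and in 7.81% of all windows. The CCAAT box, searched on both strands, occurred 2 times each in *Vim* and *Stat3* and in 37.4% of all windows. No capitals overlapped with these other motifs. These matches describe letters in the windows, and binding was not measured.

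The intermediate filament genes were first compared. *Gfap* encodes glial fibrillary acidic protein, the main filament protein of mature astrocytes, and lies on the minus strand at chr11:102887336-102900912 of GRCm38. It was measured at 889.8, 1015, and 1336 CPM in infarcts 1, 2, and 3. The contralateral cortices held 35.6, 30.9, and 49.4 CPM. Every infarct was thus far above every contralateral cortex, and infarct 3 was the highest of the 6 libraries. The means were 1080 ± 230.4 CPM and 38.6 ± 9.61 CPM (SD, n = 3 each), a 28.0-fold difference (log2 fold change 4.81, SE 0.26, adjusted *p* = 4.41e-07, edgeR quasi-likelihood).

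*Vim*, at chr2:13573927-13582826 on the plus strand, encodes vimentin, a filament protein of immature and reactive astrocytes and of mesenchymal cells. Infarcts 1, 2, and 3 held 982, 819.8, and 963 CPM, against 21.3, 16.7, and 33.0 CPM on the contralateral side. The infarcts lay close together (coefficient of variation 9.6%), whereas the contralateral libraries varied more among themselves (35.5%). The fitted change was 39.0-fold (log2 fold change 5.29, SE 0.28, adjusted *p* = 4.20e-07, edgeR quasi-likelihood), from a mean of 23.7 ± 8.41 CPM to 921 ± 88.4 CPM (SD, n = 3 each).

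*Nes*, at chr3:87971078-87980451 on the plus strand, encodes nestin, a filament protein of neural progenitors that reactive astrocytes and new vessels also make. It changed least among the genes examined. Infarcts 1, 2, and 3 held 26.3, 31.9, and 35.01 CPM, and the contralateral cortices held 11.9, 14.8, and 13.2 CPM. The regions were separate, and the difference was 2.34-fold (log2 fold change 1.23, SE 0.18, adjusted *p* = 2.19e-04, edgeR quasi-likelihood). Tested against a 2-fold change instead of against no change, *Nes* was no longer called (glmTreat adjusted *p* = 0.0974).

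Secreted proteins showed some of the widest differences. *Lcn2*, at chr2:32384633-32388252 on the minus strand, encodes lipocalin 2, an acute phase protein that binds bacterial siderophores. It was nearly silent in the contralateral cortex, with 1, 5, and 2 counts in the 3 libraries. Infarcts 1, 2, and 3 held 1198, 767, and 2435 counts, or 95.4, 56.3, and 166 CPM. Infarct 3 was 2.95 times as high as infarct 2, the widest spread among infarcts for any of the genes. The fitted log2 fold change of 9.15 (SE 0.66, adjusted *p* = 1.41e-05, edgeR quasi-likelihood) lay beyond the 99th percentile of all tested genes, which was 7.99. Its size rests on a contralateral total of 8 counts, for which the 95% exact Poisson interval is 3.45 to 15.8 counts and covers counting error only. Without contralateral cortex 2 the log2 fold change was 9.91, the highest value when any 1 library was left out, and the lowest was 8.58.

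*Serpina3n*, at chr12:104406729-104414329 on the plus strand, encodes a secreted serine protease inhibitor. The infarct libraries held 231, 279.6, and 387.5 CPM of it, and the contralateral libraries 4.96, 5.40, and 4.89 CPM. The contralateral libraries were nearly identical (coefficient of variation 5.5%), and infarct 3 was again the highest. The change was 58.7-fold (log2 fold change 5.88, SE 0.24, adjusted *p* = 1.64e-07, edgeR quasi-likelihood). Its paralogs lie in the same cluster and share sequence with it, so reads could be split or discarded between copies. Among 10 paralogs, 2 had enough counts to be tested and both were called higher. *Serpina3g* held 660, 246, and 178 counts in infarcts 1, 2, and 3, against 0, 4, and 2 counts in contralateral cortices. *Serpina3f* held 181, 97, and 42 counts in infarcts and 0 in each contralateral library, at least 38.8-fold higher with 3 counts set as the floor of each contralateral library. Both paralogs were highest in infarct 1 and lowest in infarct 3, the opposite order to *Serpina3n*.

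Genes of signaling followed, with smaller changes than those of the secreted proteins. *Stat3*, at chr11:100885098-100939540 on the minus strand, encodes the transcription factor that carries signals from cytokine receptors of the IL-6 family. Infarct levels were 190.0, 152, and 140.1 CPM, compared with 31.7, 38.35, and 36.1 CPM contralaterally. The libraries of each region were close together, without overlap, and the change was 4.54-fold (log2 fold change 2.18, SE 0.17, adjusted *p* = 3.05e-06, edgeR quasi-likelihood). *S1pr3*, at chr13:51408639-51422797 on the plus strand, encodes a G-protein coupled receptor for sphingosine 1-phosphate. Its infarct values were 109, 102, and 166 CPM, and its contralateral values 17.1, 18.0, and 18.5 CPM. Infarct 3 stood above the other infarcts, while the contralateral values differed by a coefficient of variation of only 4.0%. The change was 7.05-fold (log2 fold change 2.82, SE 0.21, adjusted *p* = 2.51e-06, edgeR quasi-likelihood). Both genes lay below the 90th percentile of all tested genes, a log2 fold change of 3.00. Exons of genes on the opposite strand covered 0.756% of the *Stat3* exons and 1.01% of the *S1pr3* exons, and the exons of the other 8 genes were free of overlap.

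The membrane proteins and enzymes were *Cd44*, *Steap4*, and *Aspg*. *Cd44*, at chr2:102811141-102901665 on the minus strand, encodes the main surface receptor for hyaluronan. It reached 304, 297.5, and 264 CPM in infarcts, from contralateral levels of 7.00, 5.27, and 7.01 CPM. Infarcts were the most even for this gene (coefficient of variation 7.4%), and the change was 44.9-fold (log2 fold change 5.49, SE 0.19, adjusted *p* = 1.50e-07, edgeR quasi-likelihood). *Steap4*, the other gene with a STAT motif in its window, lies at chr5:7960457-7982213 on the plus strand and encodes a metalloreductase of iron and copper. Its counts were 1285, 924, and 1148 in infarcts, against 12, 12, and 11 on the contralateral side. Contralateral expression was thus low in every library, at a mean of 0.808 CPM, and the change was 104.6-fold (log2 fold change 6.71, SE 0.27, adjusted *p* = 1.64e-07, edgeR quasi-likelihood). *Aspg*, at chr12:112106679-112127559 on the plus strand, encodes an asparaginase and had the lowest infarct counts of the genes examined, at 189, 183, and 262. The contralateral cortices held 14, 18, and 7 counts, clearly apart from the infarcts, and the change was 17.9-fold (log2 fold change 4.16, SE 0.29, adjusted *p* = 1.55e-06, edgeR quasi-likelihood).

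**Figure D2:**
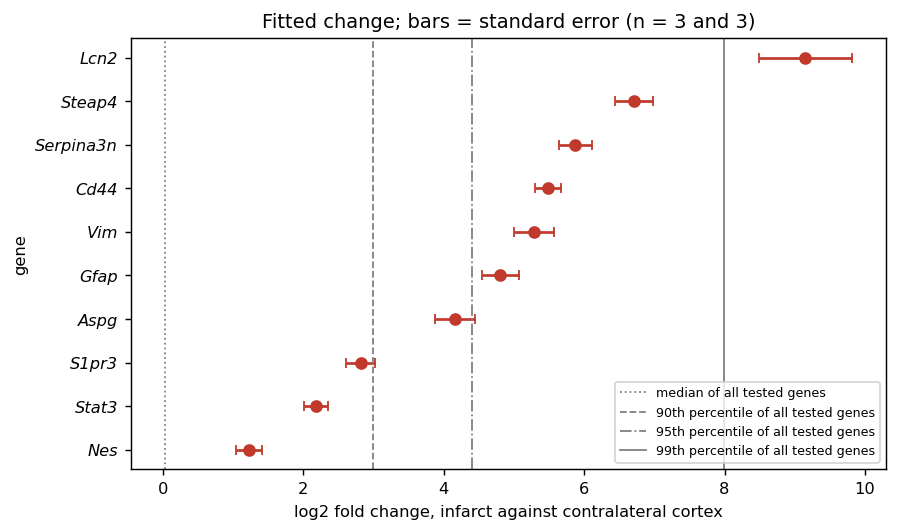
Log2 fold change of infarct against contralateral cortex for each reactive astrocyte gene, with bars for the standard error of the fit (n = 3 and 3) and vertical lines for the median and the 90th, 95th, and 99th percentiles of all 15554 tested genes. *Lcn2* (9.15) lies beyond the 99th percentile and *Nes* (1.23), *Stat3* (2.18), and *S1pr3* (2.82) lie below the 90th.

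To compare levels between genes, CPM was divided by the exonic length of each gene in kilobases (FPKM). That length merged all annotated exons of a gene, and the order under other lengths was not tested. Before the division, infarct 1 held more *Vim* (982 CPM) than *Gfap* (889.8 CPM), whereas infarcts 2 and 3 held less. In infarcts the order of FPKM levels was *Gfap* (256 ± 54.6), *Vim* (194 ± 18.6), *Serpina3n* (145 ± 38.8), *Cd44* (42.6), *Lcn2* (40.4), *S1pr3* (28.2), *Steap4* (26.3), *Stat3* (16.9), *Nes* (4.84), and *Aspg* (4.39), as means of 3. Ranges of neighbors overlapped for *Vim* and *Serpina3n*, for *Cd44* and *Lcn2*, for *Lcn2* and *S1pr3*, for *S1pr3* and *Steap4*, and for *Nes* and *Aspg*, so the order within these pairs is not set by the libraries. In contralateral cortices the order of FPKM levels was *Gfap* (9.16), *Vim* (4.996), *S1pr3* (4.001), *Stat3* (3.71), *Serpina3n* (2.46), *Nes* (2.07), *Cd44* (0.949), *Steap4* (0.256), *Aspg* (0.241), and *Lcn2* (0.0715). Ranges overlapped there between *Vim* and *S1pr3*, between *S1pr3* and *Stat3*, and between *Steap4* and *Aspg*. *Gfap* and *Vim* led in both regions, whereas *Lcn2* moved from the lowest rank to the middle.

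**Figure D3:**
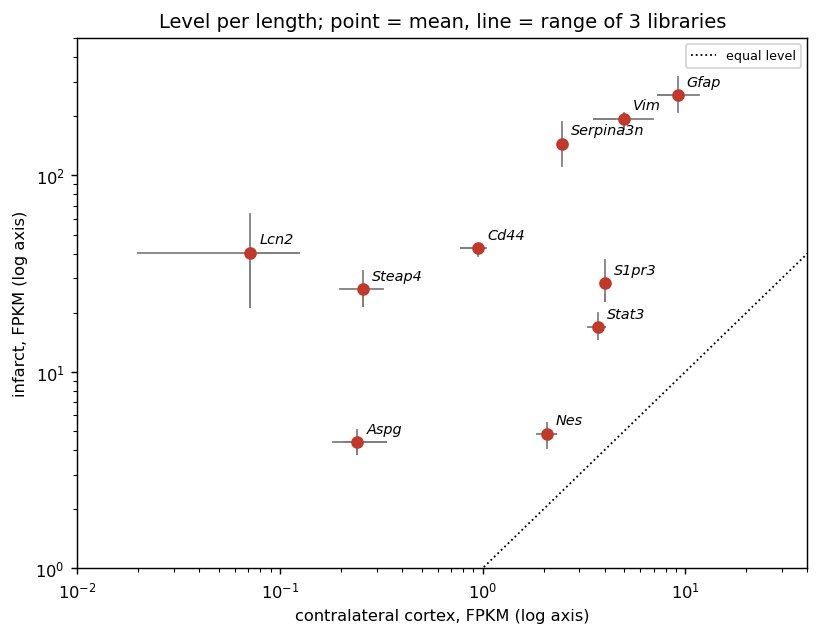
Mean level per exonic length (FPKM) in infarcts on the vertical log axis against contralateral cortices on the horizontal log axis, with gray lines for the range of 3 libraries and a dotted line for equal levels. All 10 genes lie above the dotted line, *Nes* (4.84 and 2.07 FPKM) nearest to it and *Lcn2* (40.4 and 0.0715 FPKM) farthest from it.

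The makeup of the summed CPM shifted with region. *Stat3* made up 25.1% of the sum in contralateral cortices and 5.25% in infarcts, and *Nes* 9.44% and 1.001%. *Gfap* made up 26.9% and 34.5%, and *Vim* 16.4% and 29.8%. By mean share, *Gfap*, *Vim*, and *Nes* together thus accounted for most of the CPM of these genes in both regions, more so in infarcts. In contralateral cortex 2 they held 23.4%, 12.7%, and 11.2%, short of a majority.

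Levels of *Gfap* were next set against other astrocyte genes within each library, which does not depend on scaling between libraries. General astrocyte markers did not share a direction. Of 15 such markers, 2 were called higher, 2 were called lower, and 11 were not called, with a median log2 fold change of -0.38. Those called higher were the water channel gene *Aqp4* (log2 fold change 1.68, from 323 to 1032 CPM) and the connexin gene *Gjb6* (1.59). Those called lower were the glutamate transporter gene *Slc1a2* (-2.07, from 12300 to 2933 CPM) and the growth factor receptor gene *Fgfr3* (-1.19). With library totals as the only scaling, 1 of the 15 markers was called lower and 3 higher. The number called lower was 3 with limma voom and with the replicate number as a block. It was also 3 without infarct 3, without contralateral cortex 1, or without contralateral cortex 2. The summed level of the 15 markers was 6709 to 8956 CPM in infarcts, against 16240 to 17220 CPM contralaterally, and *Slc1a2* held most of the contralateral sum.

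Per length, the ratio of *Gfap* to *Aldh1l1*, which encodes a folate enzyme found in most astrocytes, was 23.9 ± 4.01 in infarcts and 0.617 ± 0.151 in contralateral cortices (SD, n = 3 each), a 38.75-fold difference of means. The ratio of *Gfap* to *Slc1a3*, a glutamate transporter gene, differed 36.4-fold, to the transcription factor gene *Sox9* 18.2-fold, and to *S100b*, a calcium-binding protein gene, 16.5-fold. The smallest difference was for *Aqp4*, which itself was higher in infarcts. Its ratio was 1.46, 1.53, and 1.62 in infarcts and 0.163, 0.140, and 0.228 in contralateral cortices, an 8.70-fold difference. The ratio of *Gfap* to *Aqp4* was also even among infarcts, with a coefficient of variation of 5.21%. *Vim* per *Gfap* was 0.981, 0.718, and 0.641 in infarcts and 0.532, 0.482, and 0.595 in contralateral cortices, so that the regions were separate but close. *Nes* per *Gfap* was lower in each infarct, at 0.0191 ± 0.00173 against 0.237 ± 0.0712 (SD, n = 3 each). For these ratios the two-sided exact permutation *p* was 0.1, the smallest that 3 against 3 libraries allow, and this design cannot reach 0.05.

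Markers of other cell types differed between the regions as well, and these bear on genes that more than astrocytes express. All 8 myeloid markers were called higher, with a summed level of 1300 to 1793 CPM in infarcts, against 147 to 192 CPM contralaterally. All 8 fibroblast and leptomeningeal markers were called higher, at 7107 to 8796 CPM and 175.9 to 226 CPM, led by *Col3a1* (log2 fold change 7.35). All 7 lymphocyte and plasma cell markers were called higher, at 257 to 2284 CPM and 1.41 to 3.88 CPM, with *Cd2* at 0 in each contralateral library. Mural cell markers were called higher for 5 of 7 (501 to 728 and 233 to 276.5 CPM) and endothelial markers for 3 of 8 (436 to 576 and 335 to 383 CPM).

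Neutrophils are a known source of *Lcn2*. Of 8 neutrophil markers, 3 had enough counts to be tested (*S100a8*, *S100a9*, and *Ngp*) and all 3 were called higher, and the summed level was 10.2 to 13.9 CPM in infarcts, against 0.104 to 0.923 CPM contralaterally. *S100a8* held 120, 118, and 91 counts in infarcts and 2, 5, and 6 on the contralateral side (log2 fold change 4.74). *Ly6g*, the usual surface marker of mouse neutrophils, had 2 counts in infarct 2 and 0 in the others, and *Elane*, a gene of their precursors, had 0 counts in all 6 libraries. The other untested markers had few counts, with more in infarcts. *Camp* held 5, 13, and 5 counts in infarcts, against 0, 1, and 1 contralaterally. *Retnlg* (1, 7, and 11) and *Mpo* (4, 1, and 10) had counts in every infarct and 0 in each contralateral library. Neural progenitor and ependymal markers, which could accompany *Nes*, were called higher for 2 of 5 tested and lower for 1, *Dcx*. Those called higher were *Foxj1* (log2 fold change 2.665) and *Ccdc153*. *Ccdc153* (10, 10, and 33 counts in infarcts) and the untested *Tmem212* (13, 8, and 22) had 0 counts in each contralateral library. The summed level of the list was 45.4 to 59.9 CPM in infarcts, against 75.5 to 102 CPM contralaterally. *Dcx* held most of the contralateral sum, at 86.1, 63.5, and 53.7 CPM, against 24.3, 16.2, and 18.8 CPM in infarcts. The lower sum in infarcts therefore does not describe the other markers of the list. All 7 neuron markers were called lower (449 to 1195 and 6895 to 7994 CPM), and oligodendrocyte markers were called higher for 3 of 6 (4103 to 6691 and 2131 to 2538 CPM), or for 5 of 6 with library totals. The part of these cell types in the levels of *Vim*, *Cd44*, *Nes*, *Lcn2*, *Steap4*, *Stat3*, *S1pr3*, *Serpina3n*, and *Aspg* was not tested.

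**Figure D4:**
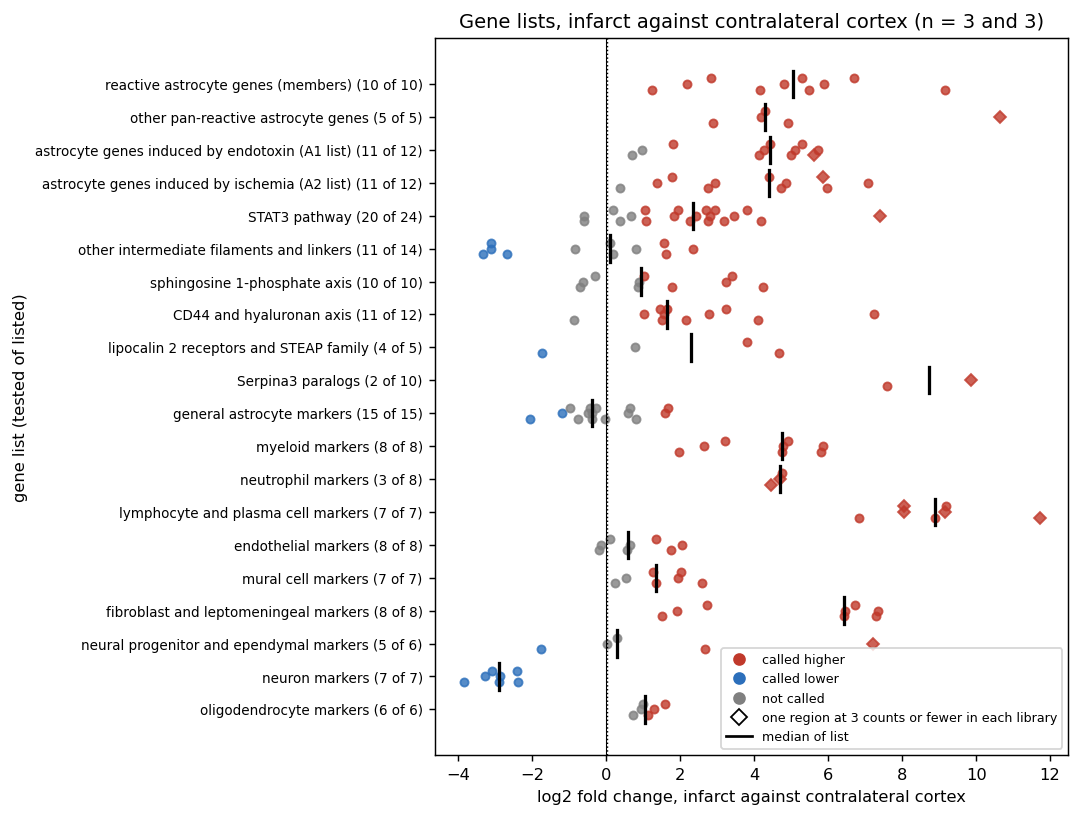
Log2 fold change of infarct against contralateral cortex for the tested genes of each list, with red points for genes called higher, blue for lower, and gray for not called, diamonds for genes at 3 counts or fewer in each library of 1 region, black bars for list medians, and a dotted line for the median of all tested genes (0.03). The reactive astrocyte genes (median 5.05) lie above general astrocyte markers (median -0.38) and below fibroblast markers (median 6.44). Myeloid markers (median 4.75) and the A1 list (median 4.44) lie close to the reactive astrocyte genes.

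Further genes described in reactive astrocytes were counted. Of 5 other pan-reactive genes, all 5 were called higher, with a median log2 fold change of 4.30. *Timp1*, an inhibitor of matrix metalloproteinases, was at 43.6, 44.4, and 44.5 CPM in infarcts, against 1.62, 0.846, and 2.03 CPM contralaterally (log2 fold change 4.90, SE 0.27, adjusted *p* = 5.13e-07, edgeR quasi-likelihood). The chemokine gene *Cxcl10* had 0 counts in each contralateral library and 202, 149, and 211 counts in infarcts, at least 65.9-fold higher with 3 counts set as the floor of each contralateral library. The ceruloplasmin gene *Cp* (4.30) and the small heat shock protein gene *Hspb1* (2.89) were higher too.

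Lists of genes raised in purified astrocytes after endotoxin (A1) or after ischemia (A2) were both mostly called higher. Of 11 A1 genes tested, 9 were higher and 0 lower, with a median log2 fold change of 4.44, among them the complement inhibitor gene *Serping1* (5.72) and the MHC class I gene *H2-D1* (5.30). *Fkbp5* (0.96) and *Amigo2* (0.69) were not called, and *Ugt1a1* had 0 counts in all libraries. Overlap of the exons of *Ugt1a1* with other genes was not measured, so its 0 counts are not read as absence of expression. Of 11 A2 genes tested, 10 were higher and 0 lower, with a median of 4.39, among them the transglutaminase gene *Tgm1* (7.07), the membrane protein gene *Emp1* (5.97), and *Cd109* (4.85). The cyclooxygenase gene *Ptgs2* was not called, at 45.9 ± 8.10 CPM in infarcts, against 35.8 ± 2.30 CPM contralaterally (SD, n = 3 each). Several genes of both lists, such as *H2-D1*, *Srgn*, and *Cd14*, are also abundant in leukocytes.

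Around *Stat3*, 15 of 20 tested pathway genes were called higher and 0 lower, with a median log2 fold change of 2.34. Among ligands, the *Il6* transcript was at 3, 0, and 2 counts in infarcts, against 0, 1, and 0 counts contralaterally, too low to be tested, and *Cntf* had 0 counts throughout. Overlap of the exons of *Cntf* with other genes was not measured, so its 0 counts are not read as absence of expression. *Lif* (1.82), *Clcf1* (2.93), and *Ctf1* (2.71) were higher, and *Osm* rose from 0 counts in each contralateral library to 23, 22, and 14 counts, at least 7.00-fold. Among receptors, the shared subunit gene *Il6st*, which encodes gp130, was at 1350, 1130, and 929 CPM in infarcts, against 158.6, 173, and 173 CPM contralaterally (log2 fold change 2.76, SE 0.19, adjusted *p* = 1.55e-06, edgeR quasi-likelihood). The oncostatin M receptor gene *Osmr* was at 139.9 ± 25.4 CPM and 7.78 ± 1.47 CPM (4.17, SE 0.21, adjusted *p* = 3.37e-07, edgeR quasi-likelihood). *Lifr* (-0.61) and *Cntfr* (-0.60) were not called. The feedback inhibitor gene *Socs3*, a direct target of STAT3, was at 35.5, 24.97, and 30.9 CPM and 3.03, 2.47, and 2.86 CPM (3.44, SE 0.21, adjusted *p* = 8.70e-07, edgeR quasi-likelihood). Further STAT genes were higher as well (*Stat5a*, 3.80, *Stat5b*, 1.07, and *Stat6*, 2.81). Of the JAK family kinase genes, *Jak2* (1.04) and *Tyk2* (1.94) were higher and *Jak1* was not called (0.66). Tested against a 2-fold change with glmTreat, 13 of the pathway genes were called higher.

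Other filament genes did not move as one group. Of 11 tested, 3 were higher (*Lmna*, 2.33, *Des*, 1.62, and *Lmnb1*, 1.56), 4 were lower, and 4 were not called. The genes called lower were the neuronal filament genes *Nefl* (-3.12), *Nefm* (-3.34), *Nefh* (-2.70), and *Ina* (-3.13). *Synm*, which encodes a filament partner of vimentin and GFAP, was at 94.0 ± 4.81 CPM and 54.2 ± 2.37 CPM and was not called (0.79).

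Of the 10 genes of the sphingosine 1-phosphate axis, 5 were called higher and 0 lower. Tested against a 2-fold change with glmTreat, 4 were called higher. Among receptors, *S1pr2* was higher (log2 fold change 4.23, SE 0.20, from 6.34 ± 0.759 to 119.8 ± 22.3 CPM), and so was *S1pr4* (3.39). *S1pr1*, the receptor gene best known from vessels and lymphocytes, was at 93.3 ± 11.1 CPM in infarcts, against 145.8 ± 12.4 CPM contralaterally and was not called (-0.64). *Sgpl1*, the lyase gene that degrades sphingosine 1-phosphate, was 590.5 ± 52.3 CPM and 62.1 ± 2.97 CPM (3.25), and the kinase genes *Sphk1* (1.78) and *Sphk2* (1.02) were higher.

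Around *Cd44*, 10 of 11 tested genes were called higher. Its ligand gene *Spp1*, which encodes osteopontin and is abundant in macrophages, was at 1590 ± 146 CPM in infarcts, against 10.7 ± 2.71 CPM contralaterally (7.23, SE 0.27, adjusted *p* = 1.64e-07, edgeR quasi-likelihood). The hyaluronan synthase gene *Has2* (3.24), the hyaluronan-degrading genes *Cemip* (2.77) and *Hyal1* (2.15), and the membrane linker gene *Msn* (4.11) were higher, and *Has3* was not called (-0.88). For *Lcn2* and *Steap4*, the lipocalin receptor gene *Slc22a17* was called lower, at 64.0, 68.1, and 124.6 CPM in infarcts, against 289.7, 300.1, and 271 CPM contralaterally (-1.75). The lipocalin receptor gene *Lrp2* was called higher on few counts (3.82, SE 0.73). It held 28, 19, and 71 counts in infarcts, against 5, 4, and 0 contralaterally. *Steap3* (4.67, from 3.96 to 99.4 CPM) was higher too, and *Steap2* was not called (0.77).

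The reactive genes also differed among infarcts. Infarct 3 was the highest for 6 genes (*Gfap*, *Nes*, *Lcn2*, *Serpina3n*, *S1pr3*, *Aspg*), and infarct 1 for the other 4 (*Vim*, *Stat3*, *Steap4*, *Cd44*). In the mean log2 level of the 3 infarcts, *Gfap* deviated by -0.26, -0.07, and 0.33 in infarcts 1, 2, and 3, and *Serpina3n* by -0.34, -0.07, and 0.41. *Steap4* deviated by 0.33, -0.27, and -0.06, and *Stat3* by 0.26, -0.07, and -0.18. The summed levels of the other pan-reactive genes (0.31, 0.04, and -0.35) and of the A1 list (0.44, -0.13, and -0.31) were lowest in infarct 3. That of the A2 list was nearly even and lowest in infarct 2 (0.08, -0.06, and -0.01). *Cp* held most of the pan-reactive sum (691, 585, and 398 CPM), whereas *Timp1*, *Hspb1*, and *Cxcl10* were not lowest in infarct 3. Marker sums also varied among infarcts. General astrocyte markers (-0.14, -0.13, and 0.28), neuron markers (-0.64, -0.14, and 0.78), and oligodendrocyte markers (-0.30, -0.10, and 0.40) were highest in infarct 3. Myeloid (0.29, -0.12, and -0.17) and lymphocyte and plasma cell markers (1.53, 0.09, and -1.62) were highest in infarct 1. With 3 infarcts these differences are a description, and the part of these cell types in them was not tested. Without infarct 1, without infarct 3, or without any other single library, all 10 genes were still called higher.

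**Figure D5:**
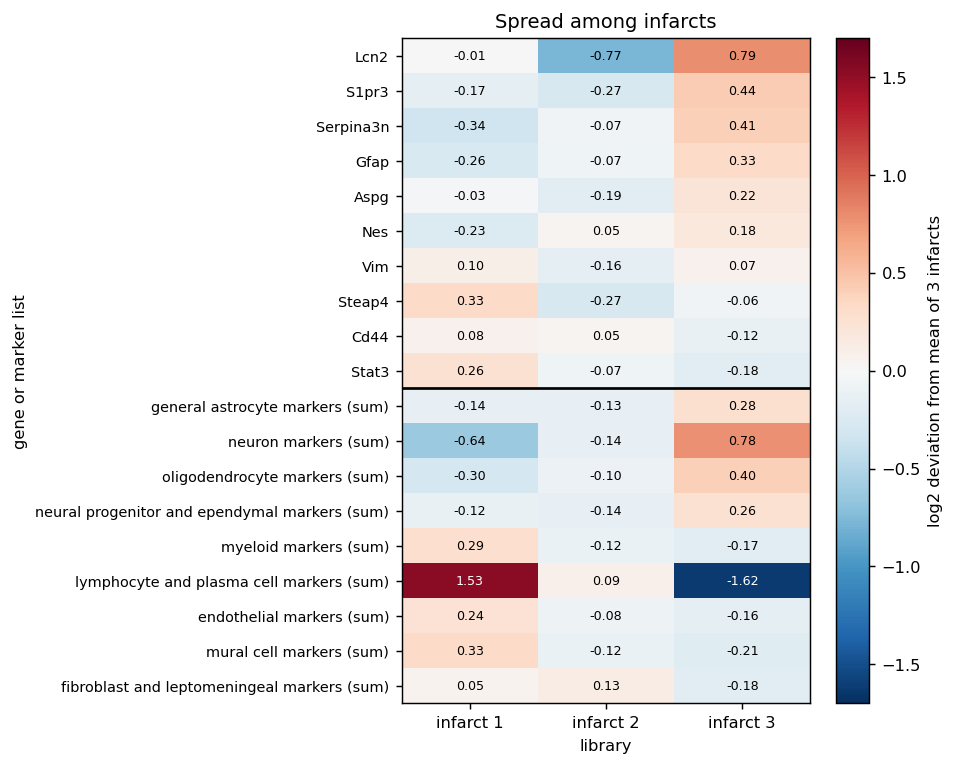
Log2 deviation of each infarct from the mean of the 3 infarcts (color and number), for each reactive astrocyte gene above the line and for summed marker lists below it. *Lcn2*, *S1pr3*, *Serpina3n*, and *Gfap* were highest in infarct 3 along with astrocyte, neuron, and oligodendrocyte markers, and lymphocyte and plasma cell markers spread from 1.53 in infarct 1 to -1.62 in infarct 3.

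Finally, genes were ranked by how closely their levels followed *Gfap* over the 6 libraries. The measure was the root mean square difference in log2 level after each gene was centered on its contralateral mean, over 9675 genes with a mean above 10 CPM. The nearest were *Cd109* (distance 0.19), *Ctsl* (0.19), *Col6a2* (0.20), *Slamf9* (0.21), and *Thbs4* (0.25), with log2 fold changes from 4.69 to 5.06. *Cd109* encodes a membrane protein on the A2 list, *Ctsl* a lysosomal protease, *Col6a2* a collagen chain, *Slamf9* a leukocyte surface receptor, and *Thbs4* a matrix protein. Of the reactive genes, *Vim* was closest at rank 53 (0.42), then *Cd44* at rank 150 (0.54) and *Serpina3n* at rank 261 (0.75), and *Nes* was at rank 1893 (2.56). *Aspg* was below the level required. The size of the change between regions enters this distance directly, and no shared function or control is implied.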

How the data were processed

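Gene expression was measured in 6 tissue samples, 3 per region. According to the methods, the authors made stranded mRNA libraries, sequenced 75 bp paired reads, demultiplexed with bcl2fastq 2.19, trimmed with Trimmomatic 0.32, aligned to GRCm38 with STAR 2.5.2b, and deposited raw counts per Ensembl gene from htseq-count. The version, annotation, and strand setting of the counting are not given in the sources used here. Entries that name no gene were left out, and between 65.7% and 73.4% of tallied reads fell on genes. Symbols, positions, and exonic lengths were taken from GENCODE M21 (45143 of 46078 identifiers matched).

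Counts were analyzed with edgeR 4.0.16 in R 4.3.3 (filterByExpr, TMM, robust glmQLFit, and glmQLFTest with region as the only term). *p* values were adjusted by Benjamini-Hochberg over 15554 tested genes, and calls needed an adjusted *p* under 0.05 and a log2 fold change beyond 1. The biological coefficient of variation was 0.22. Tables were made with pandas 2.3.3 and plots with matplotlib 3.10.9. On simulated counts for 15554 genes, 194 of 200 genes changed 4-fold were called, with 11 unchanged genes called. The simulation used the same dispersion for every gene and changed far fewer genes than were called in the data. Its rates therefore do not carry over to the data. A region at 3 counts or fewer in each library was set to 3 counts per library, and such folds are lower bounds. Promoter windows were those of RefSeq (GRCm38.p6).

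Genes named are the 10 reactive astrocyte genes, those of each list in the passage on that list, and the 5 genes nearest to *Gfap*. The genes and lists were chosen with earlier results of these data known, and no set test was run. Single values of some list genes are not reported here. Alternatives were DESeq2 1.42.0, limma voom (limma 3.58.1), RLE factors, library totals, other filters and thresholds, thinning, the replicate number as a block, and leaving out each library.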

Additional observations from a re-analysis of the deposited data

How the results depend on the processing

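All 10 reactive astrocyte genes were called higher, and 0 lower, with DESeq2, limma voom, RLE factors, library totals, no filter on low counts, thinned counts, and no fold change threshold, and when each library was left out in turn. *Nes* was not called against a 2-fold change (glmTreat, 9 of 10 genes called), and *Lcn2* and *Aspg* could not be tested under a minimum of 10 counts in every library, which left 8 genes, all called higher. Leaving out 1 library moved log2 fold changes within 4.65 to 5.02 for *Gfap*, 5.08 to 5.59 for *Vim*, 1.14 to 1.35 for *Nes*, 2.06 to 2.29 for *Stat3*, and 8.58 to 9.91 for *Lcn2*. Library totals shifted the log2 fold changes of all genes by 0.20 at the median and gave 4528 genes higher and 2766 lower, against 3999 and 3256. Deviations of same-numbered libraries correlated at -0.19, 0.10, and 0.001 over 15554 genes, which gives no ground to treat the numbers as pairs, and with 3 libraries per region it cannot show that none shared a mouse. With the replicate block all 10 genes were called higher, and 3945 genes were higher and 3222 lower in all. Counts in other lists moved too, the cause was not tested, and not every shift is listed here. With at least 10 counts in every library, 7 A2 genes and 11 STAT3 pathway genes were higher. Sphingosine 1-phosphate genes called higher numbered 7 with library totals and 4 with glmTreat or with the replicate block. CD44 and hyaluronan genes called higher numbered 8 without contralateral cortex 1 and 8 without contralateral cortex 2. With at least 10 counts in every library, the number called higher was 3 for other pan-reactive genes, 1 for lipocalin receptors and STEAP genes, 0 for *Serpina3* paralogs, 0 for neutrophil, 1 for lymphocyte and plasma cell, and 1 for progenitor and ependymal markers, and with thinned counts the last was also 1. With DESeq2 and with no filter, 4 *Serpina3* paralogs and 6 neutrophil markers were higher. Without a fold change threshold, 1 STAT3 pathway gene, 2 sphingosine 1-phosphate genes, 1 CD44 and hyaluronan gene, and 6 general astrocyte markers were lower, and 5 general astrocyte, 5 endothelial, and 6 oligodendrocyte markers were higher. With glmTreat, 1 general astrocyte marker was lower, and 3 mural and 1 oligodendrocyte markers were higher. With library totals, 1 general astrocyte marker was lower, and 3 general astrocyte and 5 oligodendrocyte markers were higher. With limma voom or the replicate block, 3 general astrocyte markers were lower. Leaving out 1 library gave 0 to 1 CD44 and hyaluronan genes lower (1 without infarct 3 and 1 without contralateral cortex 1) and 2 to 5 oligodendrocyte markers higher (5 without infarct 1, without infarct 2, or without contralateral cortex 3). Depth limits the fold change of *Lcn2*, whose contralateral counts were between 1 and 5.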
